A study of Danio rerio with 6 samples.

Results

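Oxidative phosphorylation genes code for the respiratory chain, complexes I to IV, and for ATP synthase, complex V. To describe their expression, genes were taken by symbol from the deposited table. Symbols beginning with nduf were placed in complex I, sdha to sdhd in complex II, uqcr in complex III, cox4 to cox8 in complex IV and atp5 in complex V, and the mt- genes of the mitochondrial genome were placed with the complex they build. This gave 103 of 19722 genes, 91 of them nuclear and 12 mitochondrial. Complex I held 50 genes, complexes II and III held 9 each, complex IV 17 and complex V 18. Each symbol occurred under a single Ensembl identifier. Assembly factors with such symbols (ndufaf, sdhaf) and the inhibitors of ATP synthase (atp5if1) are included, whereas cyc1, which codes for cytochrome c1 of complex III, falls outside these symbols.

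The cells were GFP-positive cells sorted from transgenic zebrafish embryos at the 15-somite stage, from which 3 libraries of Gt(endocard:egfp) and 3 of Tg(fli1a:egfp) were sequenced. Gt(endocard:egfp) is the gene-trap line Gt(SAGFF27C) combined with Tg(4xUAS:egfp), whose embryos came from homozygous carriers outcrossed to wild-type fish, and here the cells of high GFP were kept because the line also labels cardiomyocytes weakly. Tg(fli1a:egfp) carries EGFP under control of fli1a, was outcrossed from heterozygous carriers, and labels endothelium, endocardium and blood cells. From 2 ng of RNA, cDNA of each library was made by Smart-seq2, which primes reverse transcription at the poly(A) tail and keeps no record of the strand. The values given here are the authors' mean expression of each gene, taken as log2 CPM over all 6 libraries, that is log2 of counted reads scaled to library size. They are therefore one value per gene for both lines together, with no spread between libraries, and no level is ascribed to either line. CPM values are 2 to the power of this mean, a geometric mean, so a gene read in only one line takes an intermediate value. Reads per gene also depend on transcript length, which was not used here, so comparisons between genes are of reads and not of transcript numbers. In sorted populations, fewer cells of a type and less RNA per cell cannot be told apart.

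In the respiratory chain, complexes I and II pass electrons from NADH and succinate to ubiquinone, complex III passes them on to cytochrome c, and complex IV passes them to oxygen. Complexes I, III and IV pump protons across the inner mitochondrial membrane, and ATP synthase uses the proton gradient to make ATP. The mitochondrial genome codes for central membrane subunits of complexes I, III, IV and V, while all of complex II and the other subunits are made from nuclear genes and imported. Genes for some complex IV subunits exist as isoforms that, in mammals, differ between heart or skeletal muscle and other tissues.

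The oxidative phosphorylation genes lay high in the table. Their median was 6.53 log2 CPM (92.1 CPM), against 2.58 (5.98 CPM) for all 19722 genes. Of the 103 genes, 92 lay above the median of all genes and 77 above its upper quartile of 4.93 log2 CPM. Together they took 28382 CPM, or 2.97% of the summed CPM of the table. They ranged from cox7a1 at -2.64 log2 CPM (0.160 CPM) to mt-co1 at 12.43 (5531 CPM), and 7 of them lay under 1 CPM.

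Of the marker lists for the sorted cells, all 5 pan-endothelial genes were read at 186 CPM (cdh5) to 1194 CPM (fli1a). The red blood genes ran from 2.59 CPM for hbae5 to 335 for hbbe1.1, and the myeloid genes from 2.52 for mpx to 935 for spi1b. The endocardial genes nfatc1 and fn1a stood at 22.6 and 751 CPM. Myocardial genes (nkx2.5, myl7 and tnnt2a) ran from 1.23 to 16.1 CPM, skeletal muscle genes from 4.02 (ckmb) to 94.8 (actc1b), and of the yolk syncytial genes apoa2 and apoa1b were at 1.53 and 1.76 CPM. The part of each cell type in the oxidative phosphorylation reads was not tested.

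By the median of its genes, complex V was the highest at 7.72 log2 CPM, followed by complex III at 7.51, complex IV at 6.68, complex I at 5.98 and complex II at 4.67. The interquartile ranges overlapped for neighbours in this order, being 6.84 to 8.76 for complex V, 6.56 to 8.58 for complex III, -0.16 to 7.85 for complex IV, 5.04 to 6.88 for complex I and 3.35 to 5.89 for complex II. The gene sets are unlike: assembly factors make up 7 genes in complex I and 4 in complex II. The assembly genes listed for complexes III, IV and V fall outside the symbols used. atp5s of complex V, given as DMAC2L by the gene name list, was grouped with the assembly factors, but a role in assembly was not tested. The alternative of subunits only left out these genes and also atp5if1a, atp5if1b, cox7a3 and ndufa4l2a. With it the order stayed the same, complexes V, III, IV, I and II standing at 8.03, 7.51, 7.06, 6.35 and 5.89. Complex II was the lowest under each alternative tried. Among the other complexes the order depended on the choice. By the mean, complex IV (5.20) fell below complex I (5.86), and complex V (7.46) fell just below complex III (7.50). With rows named only by the gene name list added, the median of complex V (7.32) was again below that of complex III (7.51). Among genes of at least 1 CPM, complex IV rose above complex III, with a median of 7.66. No alternative added cyc1 to complex III. At 8.41 log2 CPM it lay above the medians of complexes III and V, whose order with it was not tested.

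**Figure D1:**
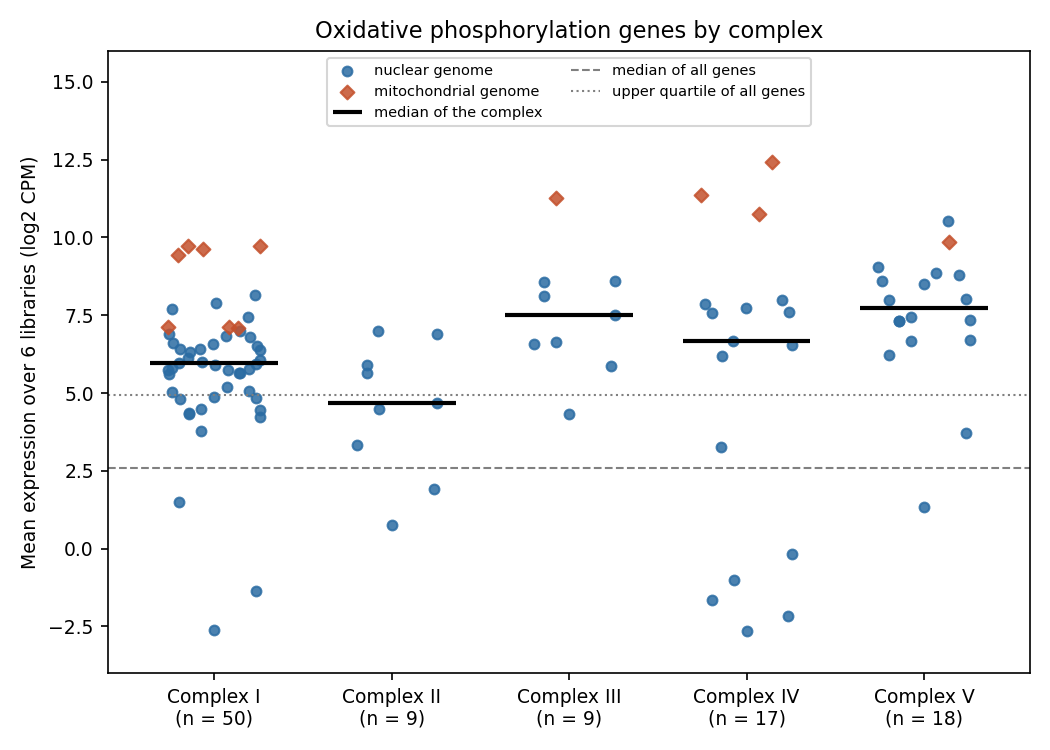
Mean expression over the 6 libraries (y axis, log2 CPM) of the 103 oxidative phosphorylation genes by complex (x axis). Each point is a gene, circles for nuclear genes and diamonds for genes of the mitochondrial genome, with a black bar at the median of each complex and grey lines at the median (2.58) and upper quartile (4.93) of all genes. The diamonds sit at the top of complexes III and IV, and 5 genes of complex IV lie under 0.

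Summed over genes, complex IV took the most reads, 11268 CPM or 1.18% of the table, since 3 mitochondrial genes gave 87.9% of its sum. Complex I took 6676 CPM, complex V 6062, complex III 3957 and complex II 419. Mitochondrial genes gave 54.2% of the sum in complex I and 61.9% in complex III, the latter from mt-cyb alone. In complex V they gave only 15.3%, from mt-atp6. With nuclear genes alone, complex V had the largest sum, 5135 CPM, followed by complex I with 3058, complex III with 1508 and complex IV with 1364. Complexes III and IV changed places when rows named only by the gene name list were added, since 5 of these are nuclear genes of complex IV and raised its sum to 2236 CPM.

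**Figure D2:**
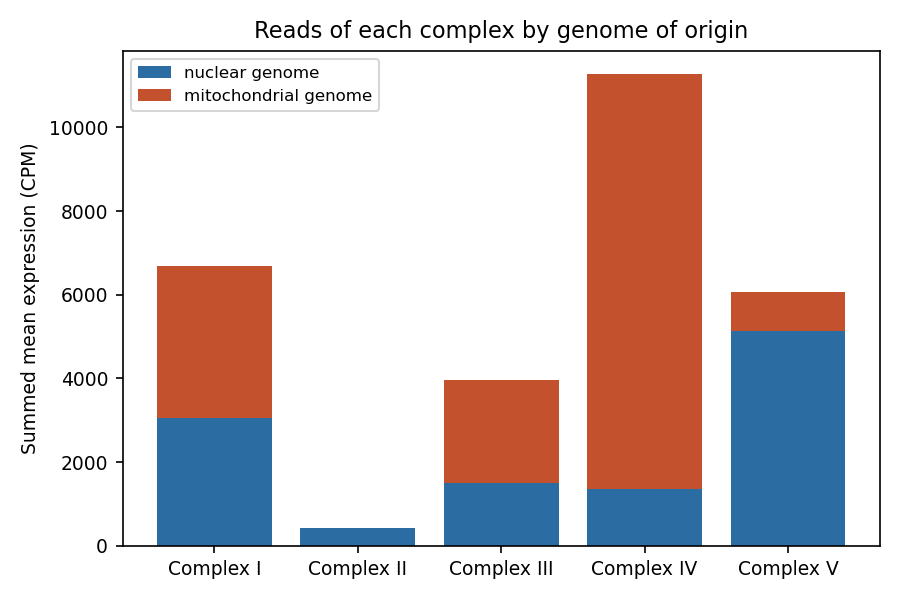
Summed mean expression (y axis, CPM from 0) of the genes of each complex, with nuclear genes in blue and genes of the mitochondrial genome in orange stacked on top. Complex IV has the tallest bar (11268 CPM) through its mitochondrial part, and complex V the largest nuclear part (5135 CPM).

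The 12 genes of the mitochondrial genome were all above the 93rd percentile of the table. Their median was 9.74 log2 CPM (854 CPM), against 6.18 (72.6 CPM) for the 91 nuclear genes, a difference of 3.56 on the log2 scale. The ranges overlapped, in that 25 nuclear genes lay above the lowest mitochondrial gene, mt-nd3. A single nuclear gene, atp5f1b, lay above the median of the mitochondrial genes. The mitochondrial genes all code for subunits, whereas the nuclear genes include assembly factors and inhibitors. The 75 nuclear subunits alone had a median of 6.53 log2 CPM (92.1 CPM). Nuclear and mitochondrial genes also differ in copy number, RNA processing and length, which were not taken into account. Together, the mitochondrial genes took 16898 CPM or 1.77% of the table, and the nuclear genes 11484 CPM or 1.20%.

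Among mitochondrial genes, the highest were mt-co1 and mt-co2 of complex IV, followed by mt-cyb and mt-co3. mt-co1, whose product holds the site of oxygen reduction, was at 5531 CPM, mt-co2, whose product takes electrons from cytochrome c, at 2631 CPM, and mt-co3 at 1742 CPM. These 3 genes took 58.6% of all mitochondrial reads counted here. mt-cyb, which codes for cytochrome b of complex III, was at 2449 CPM, and mt-atp6, for the proton channel of ATP synthase, at 927 CPM.

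The genes for the membrane arm of complex I fell into a higher and a lower group. mt-nd4, mt-nd1, mt-nd2 and mt-nd5 lay between 697 and 856 CPM, whereas mt-nd6, mt-nd4l and mt-nd3 lay between 135 and 141 CPM. The genes of the lower group are also short ones, and reads per length were not calculated. mt-nd4l and mt-nd4 overlap on the mitochondrial genome and are carried on one transcript in vertebrates. Their reads stood at 141 and 856 CPM. mt-atp8, for a small subunit of ATP synthase, has no symbol in the deposited table and was identified through the gene name list. It was at 93.9 CPM, beside 927 for mt-atp6, with which it likewise overlaps. How reads in the overlaps were assigned is not given in the sources used here, so the values of these pairs are uncertain. mt-nd6 is the protein-coding gene on the opposite strand, and without strand its reads cannot be told apart from antisense reads.

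**Figure D3:**
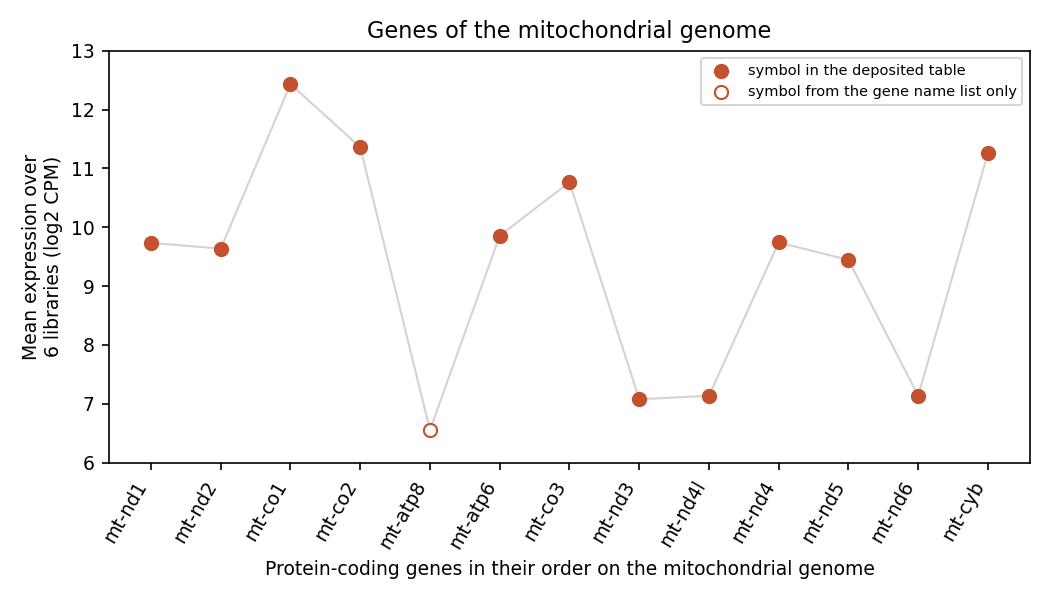
Mean expression over the 6 libraries (y axis, log2 CPM, from 6) of the 13 protein-coding genes of the mitochondrial genome in their order along it (x axis). Filled points have their symbol in the deposited table, and the open point, mt-atp8, is named by the gene name list only. mt-co1 is the highest at 12.43, and mt-nd3, mt-nd4l, mt-nd6 and mt-atp8 form the low group from 6.55 to 7.14.

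Of the 43 nuclear genes of complex I, 40 lay above the median of all genes. The 28 nuclear accessory subunits had a median of 5.96 log2 CPM and ran from ndufa9b at 3.80 to ndufab1a at 7.89, with all 28 above the median of all genes. The highest of these accessory genes were those for the mitochondrial acyl carrier proteins, ndufab1a (238 CPM) and ndufab1b (207 CPM).

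The nuclear core subunits, which carry the cofactors of electron transfer, were spread more widely than the accessory ones. In the NADH oxidation module, ndufv1, which binds NADH and the flavin, was at 111 CPM and ndufv2 at 70.0 CPM, but the iron-sulphur subunit ndufs1 was at 2.82 CPM, below the median of all genes. In the ubiquinone reduction module, ndufs7 was at 114 CPM and ndufs3 at 95.0 CPM. In the same module ndufs8b was at 0.386 CPM, and the row that the gene name list calls NDUFS8 was at 6.60 CPM. Thus ndufs1 and both ndufs8 genes stood well below ndufv1, ndufv2, ndufs3 and ndufs7, with whose products theirs assemble, a reading for which neither transcript length nor the assignment of shared reads was tested.

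The 7 assembly factors of complex I with such a symbol in the deposited table ran from 18.8 CPM for ndufaf2 to 54.0 CPM for ndufaf1. Their median was 4.82 log2 CPM. The row that the gene name list calls NDUFAF8 lay below them, at 7.64 CPM. ndufa4l2a was the lowest gene under a complex I symbol, at 0.162 CPM. Its relative NDUFA4, a name given only by the gene name list and a protein now counted with complex IV in mammals, was at 215 CPM.

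Complex II, succinate dehydrogenase, was the lowest complex but its catalytic genes were not low. sdha, the flavoprotein that oxidises succinate, was at 127 CPM and sdhb, the iron-sulphur subunit, at 120 CPM. The membrane anchor genes sdhc and sdhdb were at 50.1 and 59.2 CPM, whereas the other copy of sdhd, sdhda, was at 1.71 CPM. The assembly factors were lower. sdhaf2, which acts in attaching the flavin to sdha, was at 25.5 CPM, sdhaf4 at 22.4 and sdhaf3 at 10.2 CPM. sdhaf1, which serves sdhb, was at 3.76 CPM. Without the assembly factors, the median of complex II was 5.89 log2 CPM, below the 6.35 of complex I subunits. The latter include 7 genes of the mitochondrial genome, whereas complex II is wholly nuclear. Among nuclear genes of complex I, the 28 accessory subunits had a median of 5.96, close to that of complex II, and the 7 core subunits 6.57.

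In complex III, all 9 genes lay above the median of all genes. After mt-cyb, the highest were uqcrfs1, the Rieske iron-sulphur protein, at 392 CPM, uqcrc1, a core protein of the matrix side, at 383 CPM, and uqcrh, the hinge protein that meets cytochrome c1, at 278 CPM. The copies uqcrc2b and uqcrc2a were at 182 and 100 CPM. The small subunits uqcr10 and uqcrq were at 94.5 and 59.1 CPM, and uqcrb was the lowest at 19.9 CPM.

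The nuclear genes of complex IV split into 9 that lay above the median of all genes and 5 under 1 CPM. The first were led by cox7c (256 CPM), cox5aa (231 CPM), cox4i1 (213 CPM), cox7a2a (194 CPM) and cox7b (190.0 CPM). cox7a3 (102 CPM), cox5ab (94.0 CPM), cox6c (72.6 CPM) and cox4i2 (9.60 CPM) followed. The gene name list gives cox7a3 as COX7A2L, in mammals a factor that joins complexes III and IV. The 5 low genes were cox8b at 0.896 CPM, cox6b1 at 0.496, cox5b2 at 0.318, cox6a2 at 0.224 and cox7a1 at 0.160. In mammals COX6A2 and COX7A1 are the isoforms of heart and skeletal muscle. The gene name list, however, gives cox6a2 as COX6A1, so its match to the mammalian muscle isoform is uncertain.

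Each of these low genes had a relative that was read at a far higher level. For cox7a1 this was cox7a2a, which was 10.24 higher on the log2 scale. The relatives of the other 4 have no such symbol in the deposited table and are named here by the gene name list: cox6b2 at 399 CPM, COX5B (zgc:86599 in the table) at 252 CPM, cox8a at 99.6 CPM and cox6a1 at 89.4 CPM. Per set, the low member held between 0.0487% (cox7a1) and 0.892% (cox8b) of the reads. How very low counts entered the mean of log values is not stated, so the size of these gaps and shares is uncertain. Every subunit type with a low gene in complex IV therefore had another gene in the table at 89.4 CPM or more. In mammals COX6B1 is the widespread isoform and COX6B2 that of testis, while here the row named cox6b2 held 99.9% of the reads of its set. Whether these names follow the mammalian genes one to one was not tested.

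Complex V had the highest median of nuclear genes, 7.46 log2 CPM, followed by complex III with 7.08. The complex III set leaves out cyc1 (8.41 log2 CPM), and medians with it were not calculated. In the catalytic head, atp5f1b, the beta subunit that makes ATP, was at 1475 CPM, more than any other nuclear gene here. atp5fa1, the alpha subunit (ATP5F1A in the gene name list), was at 459 CPM, and the central stalk genes atp5f1c, atp5f1e and atp5f1d were at 533, 176 and 160 CPM. The 3 genes of the rotating membrane ring, atp5mc3b, atp5mc3a and atp5mc1, were at 449, 261 and 253 CPM. The peripheral stalk genes atp5pb, atp5po and atp5pd were at 388, 365 and 163 CPM. Membrane subunits atp5l and atp5meb were at 158 and 103 CPM, and the second copy of the latter, atp5mea, was at 13.0 CPM. The inhibitors atp5if1a and atp5if1b, which block ATP hydrolysis when respiration fails, were at 102 and 74.8 CPM. The lowest gene was atp5s at 2.55 CPM, which the gene name list gives as DMAC2L.

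Related copies differed in how evenly they were read. Of 16 sets of related genes, 9 consisted only of genes whose symbols are in the deposited table. In 4 of these the copies lay within 1 log2 unit of each other: ndufab1 (0.20 apart), atp5if1 (0.45), atp5mc (0.83) and uqcrc2 (0.86). The copies of cox5a, ndufa9 and atp5me were 1.30, 1.93 and 2.99 apart. The widest differences among these 9 sets were those of cox4i, where cox4i1 was 4.47 higher than cox4i2, an isoform that responds to low oxygen in mammals, and of sdhd, where sdhdb was 5.12 higher than sdhda. Of the 7 sets with a gene named only by the gene name list, ndufs8 spanned 4.10 log2 units and the others between 6.80 (cox8) and 10.37 (ndufa4). How reads shared by similar copies were counted is not stated, so the split within a set is uncertain, and its sum may be too.

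**Figure D4:**
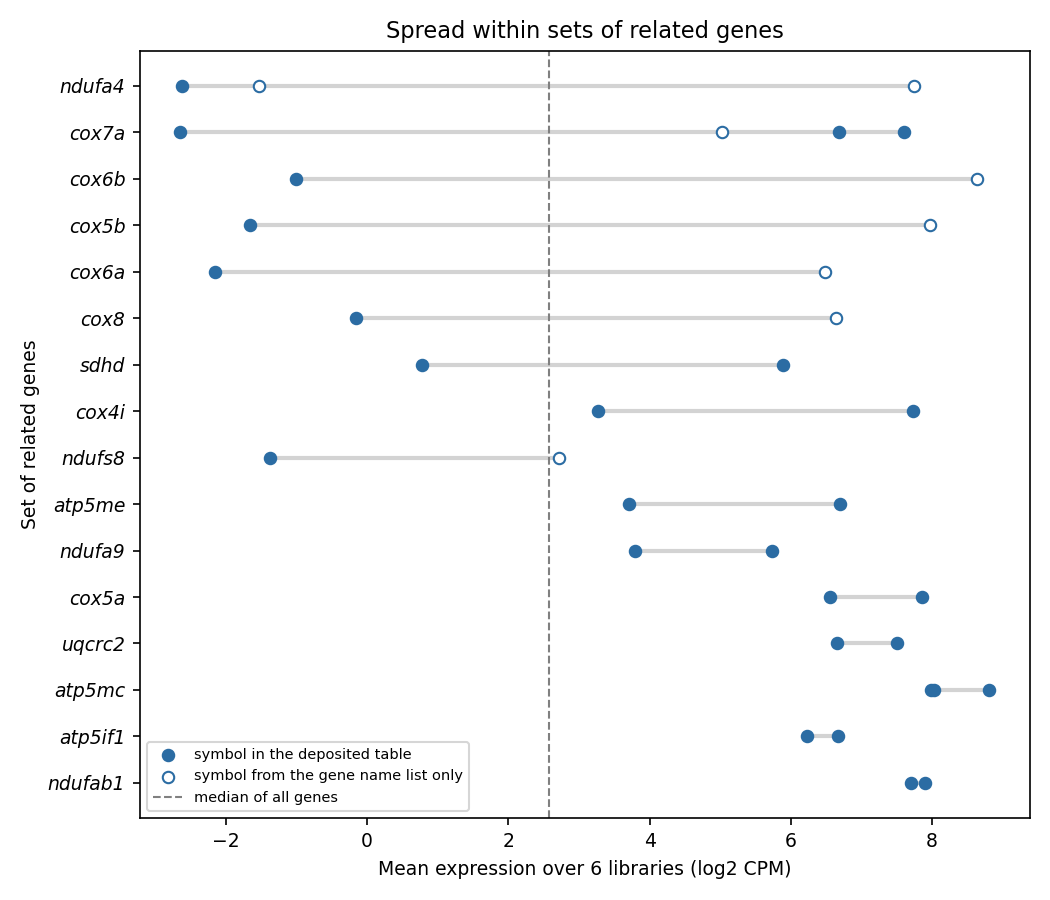
Mean expression over the 6 libraries (x axis, log2 CPM) of the genes in 16 sets of related genes (y axis), ordered by their spread. Filled points have their symbol in the deposited table, open points are named by the gene name list only, grey bars join a set, and the dashed line is the median of all genes (2.58). The ndufab1 copies lie together at 7.70 and 7.89, and the cox7a and ndufa4 sets span more than 10 log2 units.

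Genes that serve the chain but lie outside these symbols differed by list, the electron carriers and entry points having a higher median than the assembly genes. Of 65 symbols listed for them, 60 were found, with a median of 4.74 log2 CPM, and 53 of these lay above the median of all genes. The symbols not found include bcs1la and bcs1lb, while bcs1l was found, so fewer genes than symbols may be missing. Of the electron carriers and entry points, 9 of 10 were found, with a median of 6.60 log2 CPM, and 6 lay above the upper quartile of all genes. cyc1 was at 341 CPM, among the high nuclear genes of complex III, and cycsb, cytochrome c, at 525 CPM, above the highest of them, uqcrfs1 (392 CPM). The electron transfer flavoprotein genes etfa, etfb and etfdh, which feed electrons from fatty acid oxidation to ubiquinone, were at 139, 109 and 97.2 CPM. By contrast gpd2 and sqor, other entry points to ubiquinone, were both at 2.92 CPM, while dhodh of the same list was at 39.9 CPM. The 27 assembly genes found for complexes III, IV and V had a median of 4.56 log2 CPM and ran from coa3b (2.11 CPM) to cox10, a haem A synthesis enzyme (87.2 CPM). The 6 further assembly genes of complex I had a median of 4.39 and ran from foxred1 (7.76 CPM) to timmdc1 (58.4 CPM). These medians resemble the 4.48 of the ndufaf and sdhaf genes.

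In the gene order of the assembly GRCz12tu, 90 of the 91 nuclear genes could be placed by symbol, and 0 pairs of them were neighbours among protein-coding genes.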

How the data were processed

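GFP-positive cells of both lines were sequenced after Smart-seq2 amplification. The authors aligned the reads to GRCz11 with Rsubread, which also gave the counts per gene, and fitted limma, named in the submitters' processing notes too. Software versions, how genes of low count were filtered, how libraries were normalized and which model was fitted are not given in the sources used here. The mean expression the authors deposited was taken to be in log2 CPM over all 6 libraries, as limma reports it over the samples of a fit. Its column is named AveExpr, which gives neither the unit nor the number of libraries. The remaining columns hold the authors' own comparison (log2 fold change, confidence limits, t, p-value, adjusted p-value, log-odds) and were not used. Thus no test between lines, spread or depth per library was obtained, and the precision of single values is unknown.

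Values were put back to CPM, which summed to 956297, and ranked over all 19722 genes, of which 14092 had a symbol. The gene name list matched 18622 identifiers, and 16 rows that carry such a symbol only there were kept apart. Medians and sums were described without tests. The genes, lists, alternatives and naming rule (per complex the 3 highest and 3 lowest genes, core subunits, related copies and mitochondrial genes) were chosen with earlier results of these data known. One gene that this rule picks is not reported here. The summary step was tested on simulated data. Python 3.11.15, pandas 2.3.3, numpy 2.4.6 and matplotlib 3.10.9 were used.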

Additional observations from a re-analysis of the deposited data

How the results depend on the processing

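No paired analysis was possible because the values pool all libraries, and for the same reason no library could be left out. Levels per kilobase and promoter motifs were planned and not run, since no transcript lengths or sequences were used here. Values are called moved when they changed at 2 decimals, as no spread between libraries was at hand. By the mean in place of the median, complexes I to V stood at 5.86, 4.51, 7.50, 5.20 and 7.46 log2 CPM. With subunits only, complexes I, II, IV and V stood at 6.35, 5.89, 7.06 and 8.03. With genes of at least 1 CPM, complexes I and IV stood at 6.02 and 7.66 and the nuclear genes at 6.39. With the 16 rows named by the gene name list, an alternative chosen after seeing the data, complexes I, IV and V stood at 5.93, 6.66 and 7.32, the last below complex III, while nuclear and mitochondrial genes stood at 6.19 and 9.73. These rows raised the shares of complexes I, IV and V to 0.727%, 1.27% and 0.674% of summed CPM. With subunits only, these shares were 0.676%, 1.17% and 0.615%. Over nuclear genes only, complexes I, III, IV and V held 0.326%, 0.161%, 0.145% and 0.547%. The rows named by the gene name list raised the sums of the nuclear genes of complexes I, IV and V to 3333, 2236 and 5430 CPM, so that complex IV passed complex III. In all values with these rows, NDUFA4 (215 CPM) was counted with complex I by its symbol. In mammals its protein is counted with complex IV, and the values with NDUFA4 moved there were not calculated. Leaving out symbols listed under several identifiers and keeping protein-coding genes only removed no gene, so neither tested anything.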

Other observations

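Genes that maintain and express the mitochondrial genome, and nuclear regulators of respiratory genes, were read at different levels. All 11 genes of the first list were found, with a median of 5.49 log2 CPM, and 10 of them lay above the median of all genes. lrpprc and slirp, which together stabilise mitochondrial mRNA, were at 156 and 112 CPM. ssbp1, the single-stranded DNA-binding protein of the mitochondrial genome, was at 105 CPM. The transcription factors tfb2m and tfam were at 71.7 and 65.1 CPM and the RNA polymerase polrmt at 26.4 CPM. tfb1m, an rRNA methyltransferase, was the lowest at 4.67 CPM.

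Of 8 regulators in the nucleus, 7 were found, with a median of 2.90 log2 CPM. gabpa, an Ets factor of respiratory gene promoters, was at 143 CPM and its partner gabpb1 at 3.46 CPM. nrf1 and yy1b were at 49.0 and 39.4 CPM. The coactivators ppargc1a and ppargc1b, known in mammals for driving mitochondrial content in muscle and brown fat, were at 0.445 and 7.47 CPM. The receptor esrra, among the factors through which they act, was at 7.22 CPM. The levels of ppargc1a and ppargc1b stood beside a median of 72.6 CPM for nuclear oxidative phosphorylation genes, and whether they are related was not tested.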
